A study of Mus musculus with 12 samples.

Results

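The left ventricle of Balb/c mice 1 month after myocardial infarction (MI) was compared with the left ventricle of mice harvested 1 month after the sham operation of the MI series. The comparison rests on 2 of the 12 arrays of the series, 1 per group. It covers 11624 genes whose mean signal over all 12 arrays, MI 1 month included, passed a filter on dim genes. The mice were 6 to 8 weeks old, and the same age range is given for all groups. Per the series text the coronary artery was blocked for 30 min and then reopened, but the label of the array speaks of a ligation alone, so the group is called MI here. The sham is tied to the MI series only by its title. Whether an array held RNA from 1 animal or from a pool is not stated, and with 1 array per group the differences have no replicate of their own.

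The same series holds MI at 1 week, transverse aortic constriction (TAC, a pressure overload of the left ventricle) at 1 day, 1 week and 1 month, and an infusion of angiotensin II (Ang II) for 1 week at 2 mg/kg/day, each with a control array. The 6 control arrays are the MI series shams at 1 week and 1 month, the TAC series shams at 1 day, 1 week and 1 month, and the Ang II series control. All are left ventricles of the same strain. Total RNA, 5 µg per array, was labelled with biotin and hybridised to 1-colour Affymetrix arrays.

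After an infarct, dead heart muscle is cleared by neutrophils and then by macrophages, and fibroblasts fill the defect with matrix. Activated fibroblasts secrete fibrillar collagens, the matricellular proteins that organise them, and the enzymes that cross-link them, and the mature scar of the mouse later expresses genes known from cartilage and tendon. The muscle that survives carries more load. Loaded ventricular muscle is known to re-express fetal genes and to lower the genes of fatty acid oxidation, the main fuel pathway of the adult heart.

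Sizes were read in 3 ways. Signals were scaled to a common 2% trimmed mean and set to at least a floor of 4.54, the 20th percentile. A gene was called 2-fold when its log2 ratio to the sham reached 1 in size, its brighter signal was above 25.9, the median of all probe sets, and the MI signal was above or below those of all 6 controls. Separately, limma compared the MI 1 month array with the 6 controls, with the lone MI array assumed to vary like the controls and p-values adjusted over all genes by the Benjamini-Hochberg method. Differences from limma are given as log2 of MI 1 month over the 6 controls ± SE, and "rose" and "fell" are kept for genes with an adjusted p under 0.05.

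The tissue matched its label on both arrays. All 12 cardiomyocyte markers on the list were measured, with Myh6, the adult myosin heavy chain, at a signal of 13777 on the MI 1 month array and 14971 on its sham. Their summed signal was 125000 on the MI 1 month array and 136000 on its sham, against 124000 to 136000 over the 6 controls, so the MI array lay inside that range. Scale factors of the 12 arrays lay between 0.872 and 1.09, and the 3′ over 5′ ratio of actin probe sets, a sign of RNA integrity, lay between 1.18 and 1.33. No array stood apart on these measures. The 5′ over 3′ ratio of the Dap control probe sets did differ by series. It was 0.195 to 0.211 on the MI series arrays, 0.279 to 0.408 on the TAC series arrays and 0.488 to 0.493 on the Ang II series arrays. The 6 controls thus come from series that differ on this measure, and its part in the results was not tested.

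At 1 month after MI the ventricle differed from its sham mostly upward. The 2-fold rule called 336 genes higher (2.89% of the genes tested) and 72 lower (0.619%). limma called 67 genes higher (0.576%) and 33 lower (0.284%), and 56 and 15 of these were also 2-fold. Most 2-fold genes were dim: 171 of the 336 higher genes had a signal under 100 on the MI array, as did 57 of the 72 lower genes on the sham. The controls differed among themselves as well. Without the demand on the range of the controls, 439 genes (3.78%) were 2-fold higher and 114 (0.981%) lower after MI, whereas the MI series sham against the TAC series sham at 1 month gave 168 (1.45%) higher and 299 (2.57%) lower. Between the 1 week controls, the TAC series sham gave 2.56% higher and 1.47% lower against the MI series sham and 3.01% higher and 1.79% lower against the Ang II control. The MI series sham at 1 week gave 1.75% higher and 2.06% lower against the Ang II control.

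Among brighter genes the higher side of the comparison separated from the controls, and the lower side did not. With the brighter signal above the 75th percentile (111), and still without the range demand, 163 genes (1.4%) were 2-fold higher on the MI 1 month array and 20 (0.172%) lower. The 1 month sham pair gave 32 (0.275%) higher and 23 (0.198%) lower. The 1 week control pairs gave 31 (0.267%), 92 (0.791%) and 54 (0.465%) higher and 37 (0.318%), 29 (0.249%) and 20 (0.172%) lower. Set against the TAC series sham at 1 month instead of its own sham, the MI array was still at least 2-fold higher for 179 of the 336 genes and at least 2-fold lower for 55 of the 72. The limma calls also varied with the controls: 48 of the 67 higher and 21 of the 33 lower calls held when each control was left out in turn. The adjusted p without a control is given below where it ends a call. With signals as deposited the split was 71 higher and 18 lower. With the own sham alone set against MI 1 month, and the spread taken from the other 5 controls, limma called 16 genes higher (0.138%) and 1 lower (0.0086%), a setting added after the data were seen. The 16 included Comp, Fmod, Itgbl1, Sfrp2, Bgn, Col8a1, Postn and Ighm. Of the 67 higher and 33 lower calls, 23 and 9 held without the filter on dim genes, 42 and 12 with the mean of all probe sets of a gene in place of the brightest, and 19 and 3 without limma's intensity trend.

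**Figure D1:**
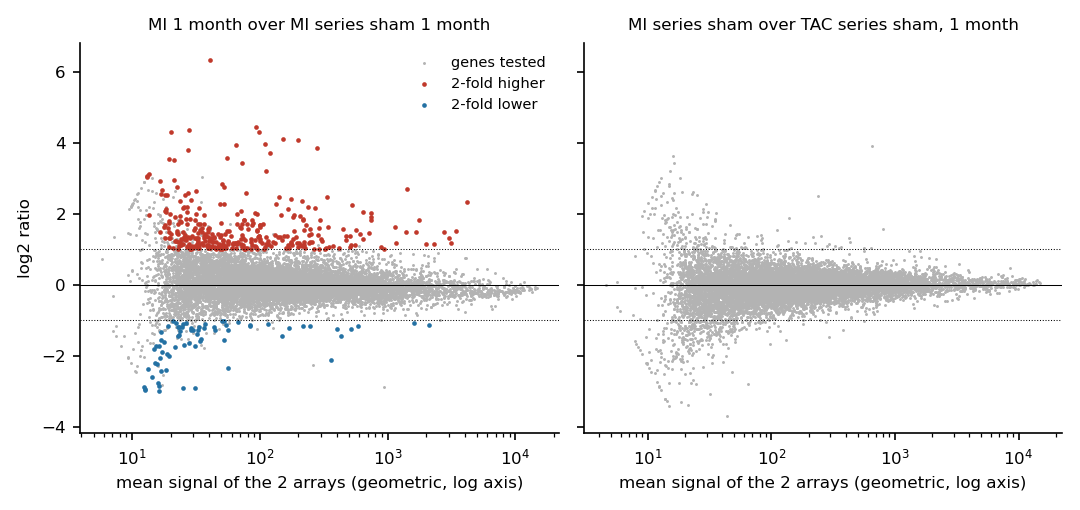
Log2 ratio of each of the 11624 genes (vertical axis) by its geometric mean signal on a log axis (horizontal), for MI 1 month over its sham and for the MI series sham over the TAC series sham at 1 month. Red and blue points are genes called 2-fold higher (336) and lower (72) after MI; at high signal the red points stand above 1 while the sham pair spreads little.

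Matrix genes made up the clearest group among the higher genes. Comp (cartilage oligomeric matrix protein), Fmod (fibromodulin, a collagen-binding proteoglycan), Itgbl1 (a secreted protein with integrin-like repeats) and Postn (periostin, the matricellular protein of activated fibroblasts) rose together with collagens and their organisers. Of the 15 fibrillar and associated collagens measured, all 15 were higher than in the sham, 9 were called 2-fold, none lower, and 4 passed limma. The shares over all genes, 2.89% called 2-fold higher and 0.619% lower, stand beside the 2-fold counts of this and every later list. The median log2 ratio of the collagens was 1.23, against 0.009 over all genes and at most 0.30 between controls of the same time. In bulk RNA, more cells of a type and more RNA per cell cannot be told apart.

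Among the collagens, Col8a1, a short-chain collagen of vessels and scars, had a signal of 1432 on the MI 1 month array and 385 on its sham, with 312, 382 and 420 as the lowest, median and highest of the 6 controls. It rose by 1.95 ± 0.18 (limma, adjusted p = 0.000331). Col5a2, which sets the diameter of collagen fibrils, had 1385 on the MI array and 390 on its sham, with controls of 385 to 581, and rose by 1.58 ± 0.22 (limma, adjusted p = 0.00529). The MI array lay well clear of the controls for both genes.

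The main scar collagens were also higher. Col1a2, a chain of collagen I, had a signal of 2780 on the MI array and 999 on its sham, with 880 to 1556 over the controls, and rose by 1.35 ± 0.25 (limma, adjusted p = 0.0276). Col14a1, a fibril-associated collagen, had 557 on the MI array and 157 on its sham and rose by 1.68 ± 0.33 (limma, adjusted p = 0.0391). Neither call held without the MI series sham at 1 month, at an adjusted p of 0.0518 for Col1a2 and 0.0704 for Col14a1. They were also lost without the TAC series sham at 1 month (0.0518 and 0.0702), and Col14a1 without the Ang II control (0.0718). After averaging all probe sets of a gene the adjusted p was 0.103 for Col1a2 and 0.133 for Col14a1.

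Col1a1 and Col3a1 were called 2-fold higher, a call that requires a value above every control, but did not pass limma. Col1a1 had 1307 on the MI array and 315 on its sham, with 309, 402 and 690 as the lowest, median and highest control (limma 1.62 ± 0.35, adjusted p = 0.0639). Col3a1 had 5726 on the MI array and 2022 on its sham, with controls between 2022 and 3655 (1.13 ± 0.25, adjusted p = 0.0749). Of the 15 collagens, 14 lay above all 6 controls, against 19.6% of all genes tested.

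The matricellular genes moved in the same direction. Of 18 measured, 13 were called 2-fold higher, none lower, and 5 passed limma, with a median log2 ratio of 1.37 against at most 0.27 between controls. Postn had a signal of 3640 on the MI array and 561 on its sham, with 428, 576 and 916 as the lowest, median and highest control, and rose by 2.65 ± 0.30 (limma, adjusted p = 0.00158). Ccn2, a growth factor-binding protein induced by TGF-beta, had 3345 on the MI array and 939 on its sham and rose by 1.81 ± 0.21 (limma, adjusted p = 0.00176). Its relative Ccn5 had 332 on the MI array and 59.7 on its sham, the highest of the controls, and rose by 2.90 ± 0.41 (limma, adjusted p = 0.00572).

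Fn1, fibronectin, and Thbs4, a thrombospondin of loaded tissue, completed the matricellular calls. Fn1 had 1140 on the MI array and 240 on its sham (limma 1.88 ± 0.26, adjusted p = 0.00529), but averaging its probe sets ended the call (0.162). Thbs4 had 465 on the MI array and 177 on its sham, with controls of 137 to 185 (limma 1.46 ± 0.20, adjusted p = 0.00493). Tnc, tenascin C, an early wound matrix protein, was near the background at 43.6 on the MI array and 17.2 on its sham and did not pass limma (adjusted p = 0.594). Smoc2 showed little difference, with 497 on the MI array and 460 on its sham.

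The measured genes known from cartilage and tendon had the highest median of the matrix lists. All 10 that were measured were higher after MI, 6 were 2-fold and 6 passed limma, with a median of 1.58 against at most 0.32 between controls and 1.72 against the TAC series sham at 1 month. A further 10 of the 22 listed genes were too dim to measure, among them Chad, Tnmd and Col2a1. With these included the median was 0.80, so the ranking is given for the measured genes only. Comp had 821 on the MI array and 48.4 on its sham, with 37.2, 42.7 and 69.6 as the lowest, median and highest control. It rose by 4.18 ± 0.33 (limma, adjusted p = 0.000207).

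Itgbl1 had a signal of 795 on the MI array and 143 on its sham and rose by 2.72 ± 0.22 (limma, adjusted p = 0.000208). Cilp, the cartilage intermediate layer protein, had 485 on the MI array and 95.2 on its sham and rose by 2.12 ± 0.31 (limma, adjusted p = 0.00676). Angptl7, a secreted angiopoietin-like protein, had 568 on the MI array and 128 on its sham, the highest control, and rose by 2.81 ± 0.43 (limma, adjusted p = 0.0095). These 3 genes, with Comp, were called 2-fold higher, a call that requires a value above all 6 controls. Fibin rose by 2.15 ± 0.24 (limma, adjusted p = 0.00142), and Mgp (matrix Gla protein, an inhibitor of calcification) rose by 1.42 ± 0.14 (limma, adjusted p = 0.000719), with 4727 on the MI array and 1916 on its sham.

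**Figure D2:**
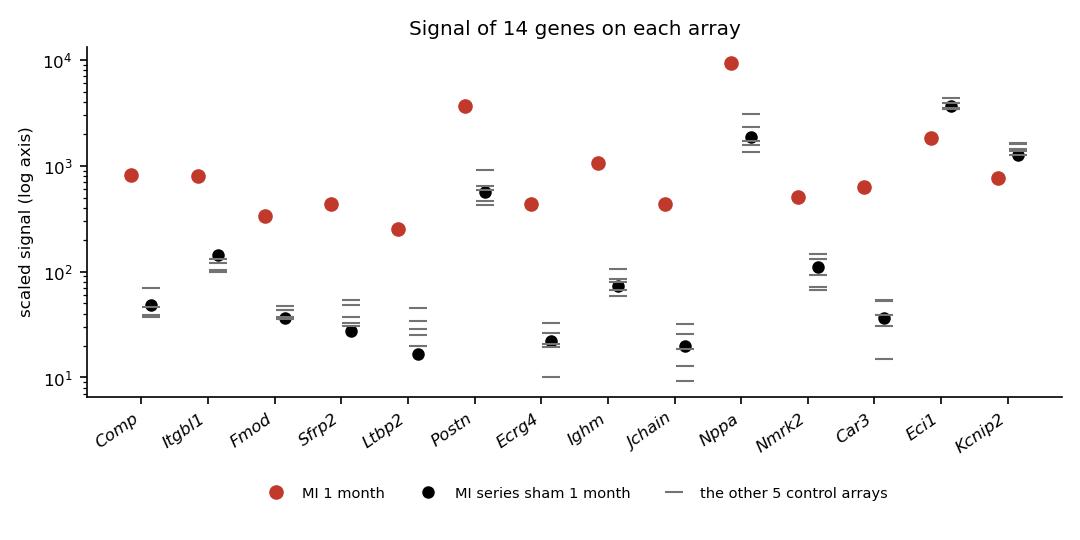
Scaled signal on a log axis of 14 genes on the MI 1 month array (red), its own sham (black) and the other 5 controls (grey dashes). The red point lies above every control for 12 genes, from Comp to Car3, all called 2-fold higher, a call that requires this. It lies below every control for Eci1 (1842 on MI, 3640 on its sham) and Kcnip2.

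Small proteoglycans and elastic fibre genes followed. Of 17 proteoglycan genes, 4 were 2-fold higher and 3 passed limma, with a median of 0.65. Bgn, biglycan, had 4600 on the MI array and 1652 on its sham and rose by 1.49 ± 0.13 (limma, adjusted p = 0.00032). Fmod had 337 on the MI array and 36.4 on its sham, with controls of 35.9 to 47.8, and rose by 3.06 ± 0.28 (limma, adjusted p = 0.000331). Vcan, versican, rose by 1.62 ± 0.30 (limma, adjusted p = 0.0276), a call lost without the TAC series sham (0.0507) or the MI series sham at 1 month (0.0524), or with the mean of all probe sets (0.582). The 6 probe sets of Fmod differed in size, with log2 ratios of 1.00 to 3.21.

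Of 15 elastic fibre and microfibril genes, 7 were 2-fold higher and 4 passed limma, with a median of 0.95. Ltbp2, a microfibril protein, had 255 on the MI array and 16.6 on its sham, with controls of 16.6 to 44.9, and rose by 3.25 ± 0.49 (limma, adjusted p = 0.00792). Mfap5 had 1496 on the MI array and 369 on its sham and rose by 1.66 ± 0.32 (limma, adjusted p = 0.0331), a call lost without the Ang II control (0.0624) or with the floor at the 40th percentile (0.0502). Fbln5 and Emilin1 rose by 1.07 and 0.95 (limma, adjusted p = 0.0391 and 0.0468), and each lost its call when any of 5 controls was left out, with an adjusted p of up to 0.0704 for Fbln5 and 0.0919 for Emilin1. With the mean of all probe sets they were at 0.717 and 0.164.

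Mfap4, a microfibril-associated protein, had the highest ratio of the comparison, but its sham was at the floor. It had 364 on the MI array and was at the floor of 4.54 in both 1 month shams, with a control median of 18.9 and a highest control of 43.4, and did not pass limma (adjusted p = 0.0737). Lox, lysyl oxidase, which starts collagen cross-linking, had 191 on the MI array and 16.1 on its sham but 47.3 on the TAC series sham (limma adjusted p = 0.125). Among 15 genes of collagen maturation, 3 were 2-fold higher and 2 passed limma, Loxl3 and Pcolce, at 1.36 ± 0.25 and 0.77 ± 0.14 (adjusted p = 0.0276 and 0.0296). Without the MI series sham at 1 month these were at 0.0549 and 0.0601, and Loxl3 without the Ang II control was at 0.0507. With the mean of all probe sets Pcolce was at 0.083.

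Fibroblast markers and secreted growth factor antagonists accompanied the matrix genes. Of 14 markers of activated fibroblasts all 14 were higher than in the sham, 5 of them 2-fold and 4 past limma (median 0.73). Of 16 markers of resting fibroblasts 3 were 2-fold higher and 2 passed limma (median 0.33). Meox1, a transcription factor of activated fibroblasts, had 312 on the MI array and 108 on its sham and rose by 1.46 ± 0.29 (limma, adjusted p = 0.0421). Its call was lost when any of 5 controls was left out, with an adjusted p of up to 0.0782, and with the mean of all probe sets (0.0759). Their part in the matrix result was not tested.

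Of 17 Wnt and IGF modulators, 6 were 2-fold higher and 4 passed limma, with a median of 0.80 against at most 0.19 between controls, and of 0.50 when the TAC series sham at 1 month was the comparison array. Sfrp2, a secreted Wnt antagonist, had 435 on the MI array and 27.7 on its sham, with 27.7, 34.9 and 54.0 as the lowest, median and highest control, and rose by 3.54 ± 0.37 (limma, adjusted p = 0.000919). Dkk3 had 347 on the MI array and 79.0 on its sham and rose by 2.37 ± 0.25 (limma, adjusted p = 0.000919). Frzb, another Wnt antagonist, rose by 1.64 ± 0.25 (limma, adjusted p = 0.00792), and Igfbp7, an IGF-binding protein, by 0.84 ± 0.12 (adjusted p = 0.00605, 0.192 with the mean of all probe sets).

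Of 21 TGF-beta pathway genes, 3 were 2-fold higher and 1 passed limma. That gene was Fstl1, a follistatin-like protein, with 1993 on the MI array and 649 on its sham (1.28 ± 0.22, adjusted p = 0.0198, 0.0576 with the mean of all probe sets). The ligands Tgfb2 (155 on the MI array, 68.8 on its sham) and Tgfb3 (287 on the MI array, 116 on its sham) were 2-fold higher but had limma adjusted p of 0.0743 and 0.0612. Of 19 matrix proteases and inhibitors, 4 were 2-fold higher and 0 passed limma (11 above all 6 controls, against 19.6% of all genes). Timp1, a metalloproteinase inhibitor, had 191 on the MI array and 31.8 on its sham but 127 on the highest control (limma adjusted p = 0.322).

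Macrophage markers were raised as a group, with few passing limma alone. Of 26 measured, 15 were 2-fold higher, 24 lay above all 6 controls and 1 passed limma, with a median of 1.02. Over all genes tested, 19.6% lay above all 6 controls. The controls themselves differed by up to 0.83 in this list, and the median against the TAC series sham at 1 month was 0.93. The summed signal was 11300 on the MI array and 5910 on its sham, with 4980 to 8550 over the 6 controls. Ctss, cathepsin S, had 764 on the MI array and 259 on its sham, with controls of 216 to 406, and rose by 1.44 ± 0.25 (limma, adjusted p = 0.0228).

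Lyz2, the lysozyme of myeloid cells, had 2960 on the MI array and 1343 on its sham, and 2067 on the highest control (limma adjusted p = 0.089). Ccr2, the chemokine receptor of monocyte-derived macrophages, had 107 on the MI array and 22.1 on its sham, with a highest control of 38.8 (limma adjusted p = 0.0947). Both were called 2-fold higher, a call that requires an MI value above every control. Cx3cr1, a receptor of resident and patrolling cells, was higher than in its own sham (77.6 on the MI array, 15.4 on the sham) but within the controls, whose highest value was 121.

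Genes of lipid-associated macrophages gave 6 of 16 2-fold higher and 3 past limma, with a median of 0.70, or 0.37 with the mean of all probe sets. Ctsk (cathepsin K, a collagen-degrading protease) rose by 1.54 ± 0.29 (limma, adjusted p = 0.0306), a call lost without the MI series sham at 1 week (0.0524) or with the mean of all probe sets (0.0501). Cd9, a tetraspanin, rose by 0.88 ± 0.15 (limma, adjusted p = 0.0198). Apoe, the apolipoprotein that macrophages secrete, had 2754 on the MI array and 1567 on its sham and rose by 0.84 ± 0.15 (adjusted p = 0.0214). Lgals3 (galectin 3) had 404 on the MI array and 105 on its sham, above a highest control of 170 (limma adjusted p = 0.146), and Trem2 had 66.6 on the MI array and 5.71 on its sham, with 1 control at the floor (adjusted p = 0.316).

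Among 20 cytokine and chemokine genes 5 were 2-fold higher and 0 passed limma, and among 20 complement and acute-phase genes 6 and 0. Hp, haptoglobin, had 127 on the MI array and 6.13 on its sham, with a highest control of 33.2 (limma adjusted p = 0.105). Serpina3n, an acute-phase protease inhibitor, had 405 on the MI array and 75.7 on its sham, with a highest control of 262 (limma adjusted p = 0.239). Ccl8, a monocyte chemoattractant, had 424 on the MI array and 144 on its sham, with controls up to 261 (adjusted p = 0.316). Interferon-response genes differed little (25 measured, 0 called, median 0.12), and neutrophil and T or NK cell lists had 5 measured members each, with medians within the control differences.

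Genes of antibody-secreting cells stood out from the other immune lists. Of 5 measured B and plasma cell genes, 3 were 2-fold higher and 2 passed limma, with a median of 1.81 against at most 0.47 between controls. The median was 1.13 after averaging probe sets and 0.68 with dim genes included. With the mean of its 11 probe sets Ighm was under the dim filter, so neither of its calls was made in that setting. Ighm, the heavy chain of IgM, had 1062 on the MI array and 73.1 on its sham, with 58.9, 76.7 and 105 as the lowest, median and highest control, and rose by 3.78 ± 0.27 (limma, adjusted p = 0.000158). Jchain, which joins IgM and IgA into polymers, had 438 on the MI array, against a lowest, median and highest control of 9.3, 19.3 and 32.2, and rose by 4.58 ± 0.60 (adjusted p = 0.00414). Igkv8-30, a light chain variable segment, had 433 on the MI array and 33.2 on its sham and rose by 4.05 ± 0.53 (adjusted p = 0.004).

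Igha, the heavy chain of IgA, had 142 on the MI array and 40.4 on its sham, with a highest control of 69.1, and did not pass limma (1.67 ± 0.39, adjusted p = 0.0857). Of 44 immunoglobulin probe sets with 1 symbol, 18 were 2-fold higher and 0 lower, and 26 were under the median signal on all 7 arrays. Immunoglobulin segments share sequence, so the source of the signal among segments is uncertain. The B cell markers Ms4a1, Cd79a, Cd79b, Pax5 and Cr2 were too dim to measure. The summed signal of the 5 measured genes was 3180 on the MI array and 1620 on its sham, with 1360 to 1670 over the controls. The 3 called 2-fold higher were Ighm, Jchain and Igha, and the list median of 1.81 was the ratio of Igha. The other measured genes were not called, and the lowest had a log2 ratio of 0.02. The higher median thus rests on immunoglobulin and J chain genes.

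A few load-response genes rose while the contractile genes stayed close to sham. These are signals of the whole left ventricle, and which cells carried them was not tested. Of 25 fetal and load-response genes, 5 were 2-fold higher and 3 passed limma, with a median of 0.33 against at most 0.10 between controls. Against the TAC series sham at 1 month the median was 0.18. Nppa, the atrial natriuretic peptide, had 9373 on the MI array and 1857 on its sham, with 1357, 1777 and 3075 as the lowest, median and highest control, and rose by 2.30 ± 0.32 (limma, adjusted p = 0.00529). Nmrk2, a nicotinamide riboside kinase of the NAD salvage pathway, had 507 on the MI array and 110 on its sham, with controls of 66.6 to 146, and rose by 2.36 ± 0.37 (adjusted p = 0.0103). Fhl1, a LIM protein of the loaded sarcomere, had 4738 on the MI array and 2094 on its sham and rose by 1.02 ± 0.17 (adjusted p = 0.0139, 0.0703 with the mean of all probe sets).

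The 100 bases before the annotated start of Nppa and Nmrk2, and of Dio2, an enzyme that activates thyroid hormone and rose as described below, are shown because each holds the letters TATAAA, in capitals. The sequences are from RefSeq, build GRCm38.p6, 5′ to 3′ on the gene's strand. Nppa lies at chr4:148000622-148000721 on the plus strand, Nmrk2 at chr10:81202038-81202137 on the minus strand and Dio2 at chr12:90739039-90739138 on the minus strand.
Nppa: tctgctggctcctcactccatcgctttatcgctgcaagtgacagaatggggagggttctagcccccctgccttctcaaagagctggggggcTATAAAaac
Nmrk2: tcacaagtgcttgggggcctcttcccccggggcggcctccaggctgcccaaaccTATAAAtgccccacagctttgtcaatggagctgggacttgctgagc
Dio2: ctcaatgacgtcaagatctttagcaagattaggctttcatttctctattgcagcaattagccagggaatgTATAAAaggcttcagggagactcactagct

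The motif lies 9 to 4 bases before the annotated start of Nppa, 46 to 41 bases before that of Nmrk2 and 30 to 25 bases before that of Dio2. Shares were taken over genes with exactly 1 RefSeq promoter entry. These were 201 of the 336 2-fold higher genes, 52 of the 72 lower genes and 7431 of the 11624 genes tested. Over the 250 bases upstream and on both strands, TATAAA was found in 29 (14.4%), 3 (5.77%) and 487 (6.55%) of these, in the same order. The AP-1 letters TGANTCA were found in 5.47% of the higher, 3.85% of the lower and 3.89% of all these promoters. These shares are descriptions, and they were not tested.

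Other fetal genes gave mixed values. Myh7, the fetal myosin heavy chain, had 2322 on the MI array and 837 on its sham, with 564, 930 and 1356 as the lowest, median and highest control, and did not pass limma (1.35 ± 0.33, adjusted p = 0.101). Nppb, the B-type natriuretic peptide, had 7743 on the MI array and 6159 on its sham (adjusted p = 0.407). The skeletal actin gene Acta1 had 9742 on the MI array and 10051 on its sham. Nppb and Acta1 are among the 152 genes with signals above 5000.

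Genes of atrial muscle were higher too, with 5 of 12 2-fold and 2 past limma, Nppa and Dkk3. Their median was 0.99 against at most 0.41 between controls. Myl7, the atrial light chain, had 987 on the MI array and 369 on its sham, with a highest control of 840 (limma adjusted p = 0.222), and Sln, sarcolipin, had 370 on the MI array and 162 on its sham (adjusted p = 0.125). The probe sets of Myl4 disagreed, with log2 ratios of -2.71 and 1.08. The summed signal of the 12 genes was 16200 on the MI array and 5470 on its sham, with 4850 to 7930 over the controls, and the part of atrial tissue in the result was not tested.

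Contractile genes of the cardiomyocyte differed little, whereas channel genes were lower as a list. The 17 potassium, sodium and gap junction channel genes had a median of -0.32, or -0.48 against the TAC series sham at 1 month, with at most 0.13 between controls. Of these genes 11 lay below all 6 controls, against 19.5% of all genes tested. The 19 sarcomere genes had a median of -0.08, with 0 called, and the 12 cardiomyocyte markers had a median of -0.13, but both medians turned to 0.01 and 0.005 with quantile normalization. Hrc, a calcium-binding protein of the sarcoplasmic reticulum, fell by 0.62 ± 0.09 (limma, adjusted p = 0.00792, 0.0576 with signals as deposited), with 2842 on the MI array and 4202 on its sham, the lowest control. Kcnip2, the subunit of the transient outward potassium current, had 768 on the MI array and 1272 on its sham, with controls of 1257 to 1648, and fell by 0.89 ± 0.16 (adjusted p = 0.0228, 0.917 with the mean of all probe sets). It was the 1 channel gene of 17 to pass limma, while 16 of the 17 were below their sham value. Hopx, a regulator of cardiac transcription, fell by 0.52 ± 0.10 (adjusted p = 0.0398), a call lost when any of 5 controls was left out, at 0.061 to 0.0905, and with signals as deposited (0.138), quantile normalization (0.0979) or the mean of all probe sets (0.133).

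Fuel genes were lower, in small steps and across nearly every gene listed. Of 32 fatty acid oxidation genes, all 32 were below their sham value, 29 lay below all 6 controls (against 19.5% of all genes) and 7 fell by limma, with 2 called 2-fold lower. The median was -0.46 and the range -1.56 to -0.04, against differences of at most 0.14 between controls. The summed signal was 102000 on the MI array and 136000 on its sham, with 124000 to 142000 over the controls, so the MI array lay below them all. The cardiomyocyte markers had a median of -0.13 beside this, and their part in the result was not tested. The limma calls of this list depended on the settings of the fit. Without limma's intensity trend, or with the own sham alone, none of them held, nor did that of Pdk4, described below. Without the filter on dim genes only Eci1 kept its call among these.

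Eci1, an isomerase of unsaturated fatty acid breakdown, had 1842 on the MI array and 3640 on its sham, with 3423, 3593 and 4373 as the lowest, median and highest control, and fell by 1.01 ± 0.13 (limma, adjusted p = 0.00414). Cpt2, the carnitine transferase of the inner mitochondrial membrane, had 1022 on the MI array and 1830 on its sham and fell by 1.04 ± 0.19 (adjusted p = 0.0237). Hadha, the alpha subunit of the trifunctional protein, fell by 0.69 ± 0.11 (adjusted p = 0.0103), and Acaa2, a thiolase, by 0.82 ± 0.13 (adjusted p = 0.011). Ech1 fell by 0.65 ± 0.10 (adjusted p = 0.00792) and Decr1 by 0.61 ± 0.11 (adjusted p = 0.0311). Decr1 lost its call without the MI series sham at 1 week (0.0618), at 1 month (0.0704) or the Ang II control (0.0626). With signals as deposited Cpt2 (0.0633), Ech1 (0.0583) and Decr1 (0.147) did not pass, and with the mean of all probe sets Cpt2 (0.202) and Acaa2 (0.10) did not.

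Pdk4, the kinase that turns off pyruvate oxidation when fat is burned, had 1425 on the MI array and 3136 on its sham, with controls of 2454 to 3362, and fell by 1.04 ± 0.16 (limma, adjusted p = 0.0111). Acot1, an acyl-CoA thioesterase, was dim, with 30.5 on the MI array and 89.7 on its sham, and did not pass (adjusted p = 0.301). The related mitochondrial lists moved less. All 40 respiratory chain genes were below their sham value, with a median of -0.23, 32 below all 6 controls and 0 past limma. All 21 TCA cycle genes were below it, with a median of -0.27, or -0.14 with quantile normalization, 18 below all controls and 0 past limma. Ketone and branched-chain amino acid genes had a median of -0.40, with 20 of 21 below the sham. Over all genes tested, 19.5% lay below all 6 controls.

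Respiratory chain signals are bright, with 29 of 40 above 5000 on the MI array, and their median was -0.09 with quantile normalization. Glucose handling genes did not differ as a list (28 measured, 0 called, median -0.04).

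**Figure D3:**
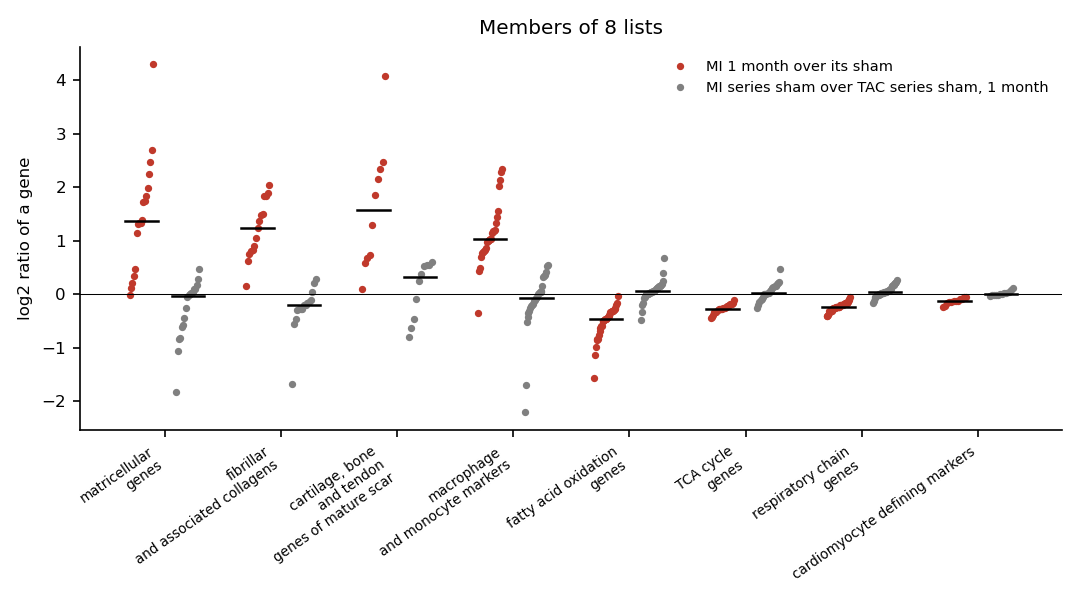
Log2 ratios of the members of 8 gene lists, for MI 1 month over its sham (red) and for the MI series sham over the TAC series sham at 1 month (grey), with medians as black lines. Matrix lists and macrophage markers sit above 0 (medians 1.02 to 1.58), fatty acid oxidation, TCA and respiratory chain genes below (medians -0.46, -0.27 and -0.23), and cardiomyocyte markers near 0.

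Adipocyte genes went both ways. Of 15 white adipocyte genes, 4 were 2-fold higher and 1 lower, and limma called 1 higher and 2 lower. Car3, carbonic anhydrase 3, abundant in fat and muscle, had 630 on the MI array and 36.5 on its sham, with 15.1, 37.6 and 53.6 as the lowest, median and highest control, and rose by 4.17 ± 0.54 (limma, adjusted p = 0.004). Adipoq, adiponectin, had 102 on the MI array and 7.37 on its sham, with controls of up to 25.4 (adjusted p = 0.115). Dgat2, a triglyceride synthase, and Thrsp, a lipogenic regulator, fell by 1.06 ± 0.17 and 0.90 ± 0.17 (adjusted p = 0.0103 and 0.0347), and Thrsp lost its call without the TAC series sham at 1 month (0.0669), the MI series sham at 1 week (0.0556) or the Ang II control (0.067), and with signals as deposited (0.0519) or the mean of all probe sets (0.391). Dio2, listed with brown adipocytes, had 136 on the MI array and 19.9 on its sham, with controls of 19.9 to 32.3, and rose by 2.34 ± 0.38 (adjusted p = 0.0138, 0.142 with the mean of all probe sets). The defining adipocyte genes Lep, Retn and Cidec, and Ucp1 for brown fat, were too dim to measure. With the mean of its 4 probe sets Car3 was under the dim filter as well, so neither of its calls was made in that setting.

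The other genes with the highest ratios included Ecrg4, a secreted peptide precursor, with 437 on the MI array and 22.1 on its sham, which rose by 4.40 ± 0.54 (limma, adjusted p = 0.00294). Its 3 probe sets differed in size, with log2 ratios of 0.88 to 4.30. Cthrc1, a secreted protein of activated fibroblasts, and Cfb, complement factor B, were dim in the controls, with 3 and 2 of 6 at the floor, and had adjusted p of 0.258 and 0.433. Immediate early genes had 7 of 23 2-fold higher and a median of 0.49 against at most 0.21 between controls, or 1.01 against the TAC series sham at 1 month, but 0 passed limma. Fos had 292 on the MI array and 74.0 on its sham, with a highest control of 233 (adjusted p = 0.299). Among 21 endothelial genes 1 passed limma, Plvap, a fenestral protein of vessels, at 1.40 ± 0.27 (adjusted p = 0.0365), a call lost when any of 4 controls was left out, with an adjusted p of up to 0.0704. The median of the endothelial list was 0.00.

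Among the heat shock genes, the own sham differed from the other 1 month sham. Hspa1b, an inducible HSP70 chaperone, had 347 on the MI array and 2551 on its sham, but 169 on the TAC series sham at 1 month. Its log2 ratio was -2.88, and the MI value lay inside the controls (limma adjusted p = 0.936).

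Of the 56 lists with at least 4 measured members, 32 had a median beyond the largest difference between controls of the same time, 21 higher and 11 lower. Lists whose medians stayed within the controls included glycolysis and glucose handling, ribosomal and proteasome genes, skeletal muscle genes and the circadian list (-0.17, or 0.47 against the TAC series sham at 1 month, with up to 0.60 between controls). The lung and liver and the thymus lists had fewer than 4 members measured.

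**Figure D4:**
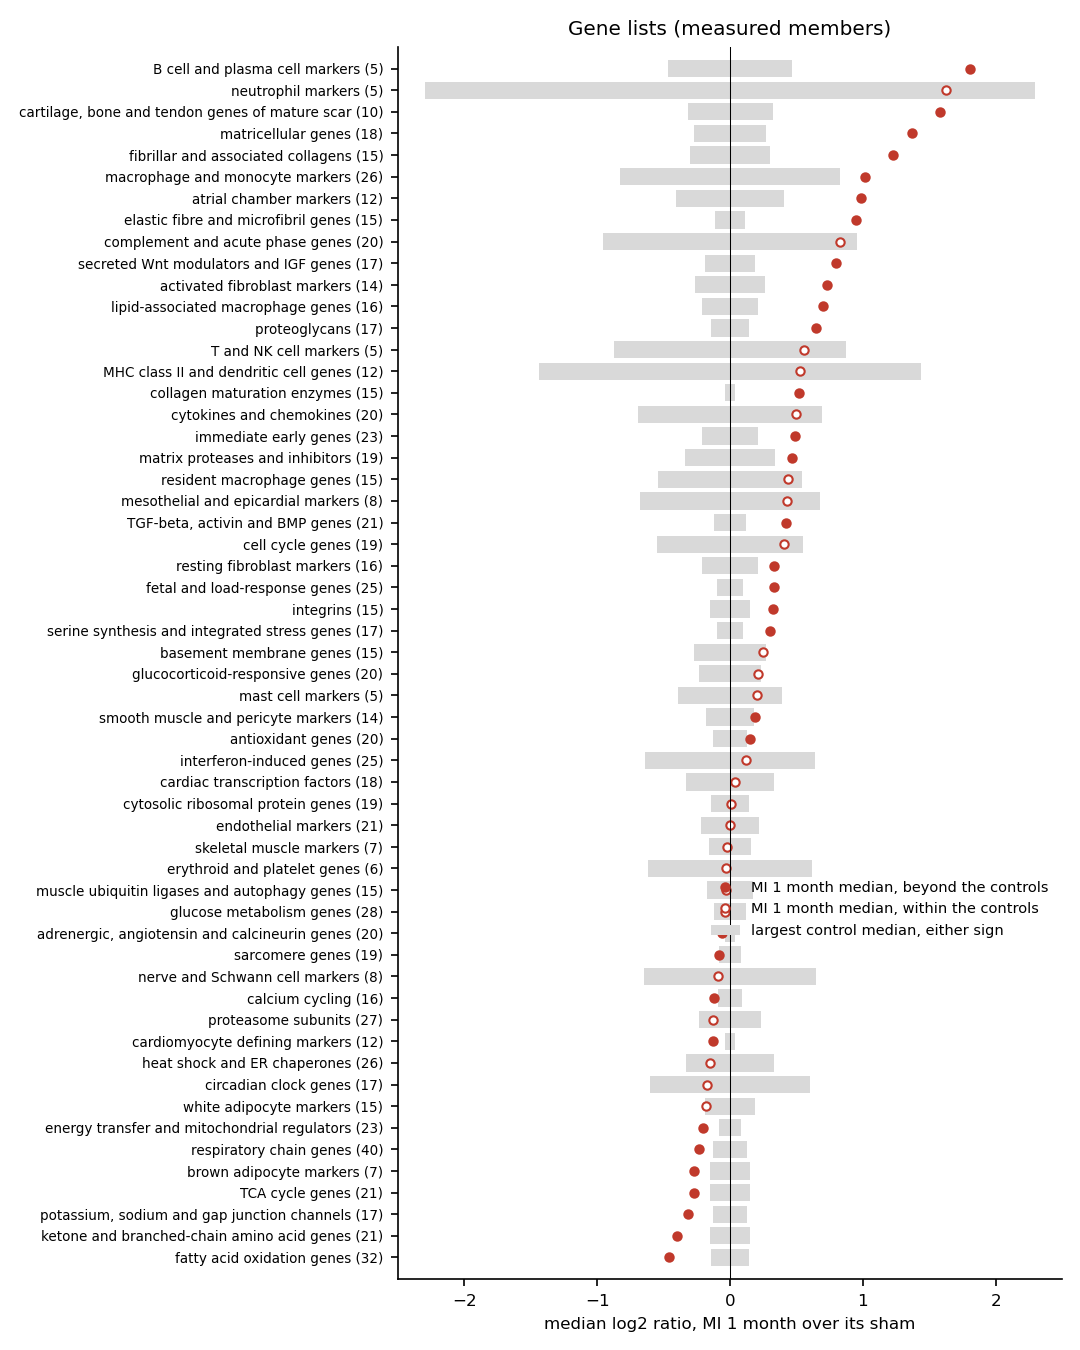
Median log2 ratio to the own sham of 56 gene lists (points), with the grey bar as the largest median difference between controls of the same time. Filled points (32) lie beyond the bar and open points within it; matrix and antibody lists are at the high end and fatty acid oxidation at the low end.

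Lower genes were mostly dim. Of the 72 genes called 2-fold lower, 3 were at the floor on the MI array, and the median signal was 16.6 on the MI array and 45.8 on its sham. Kcnn1, a calcium-activated potassium channel, was at the floor of 4.54 on the MI array and lay between 35 and 49.7 on the 6 controls, its own sham being the lowest, and fell (limma, adjusted p = 0.00311). Its other probe set had a log2 ratio of -0.0, and averaging both (0.083) or a floor at the 40th percentile (0.0963) ended the call. Plxnb3, a semaphorin receptor, had 11.3 on the MI array and 84.4 on its sham and fell by 2.51 ± 0.38 (adjusted p = 0.00792, 0.161 with the mean of all probe sets). Zbtb5, a zinc finger protein, had 6.08 on the MI array and 44.0 on its sham and fell by 2.93 ± 0.42 (adjusted p = 0.00605, 0.122 with the floor at the 40th percentile). Since Kcnn1 is at the floor on the MI array, the size of its difference depends on that floor.

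The lists were set beside MI at 1 week and TAC at 1 month, each over its own sham. Collagens had a median of 1.23 in MI at 1 month, 1.82 in MI at 1 week and 1.04 in TAC at 1 month, and the matricellular genes had 1.37, 1.82 and 0.64 in the same order. Macrophage markers had 1.02 in MI at 1 month, 1.77 in MI at 1 week and 0.42 in TAC. The cartilage and tendon list had 1.58 in MI at 1 month, 1.14 in MI at 1 week and 1.07 in TAC, and the B and plasma cell genes had 1.81, 0.38 and 0.03. Fatty acid oxidation genes had -0.46, -0.52 and -0.48. The lists overlap in members, and the differences between these medians were not tested.

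Single genes followed both orders. Lgals3 had 404 on the MI 1 month array and 1952 on the MI 1 week array, and 94.3 after TAC for 1 month. Col1a1 had 1307 at 1 month, 6144 at 1 week and 1456 after TAC. Comp had 821 at 1 month after MI, 334 at 1 week and 355 after TAC. Jchain had 438 at 1 month after MI, 61.0 at 1 week and 28.9 after TAC. Ighm had 1062 at 1 month after MI, 174 at 1 week and 95.1 after TAC. Those 3 genes, with Car3, were brightest on the MI 1 month array. Car3 had 630 at 1 month, 164 at 1 week and 150 after TAC.

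limma called no gene between MI at 1 month and MI at 1 week. Between MI and TAC at 1 month it called Ighm alone, higher after MI by 3.48. These fits rest on 1 array a side, so a gene that missed the threshold is not shown to be alike.

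**Figure D5:**
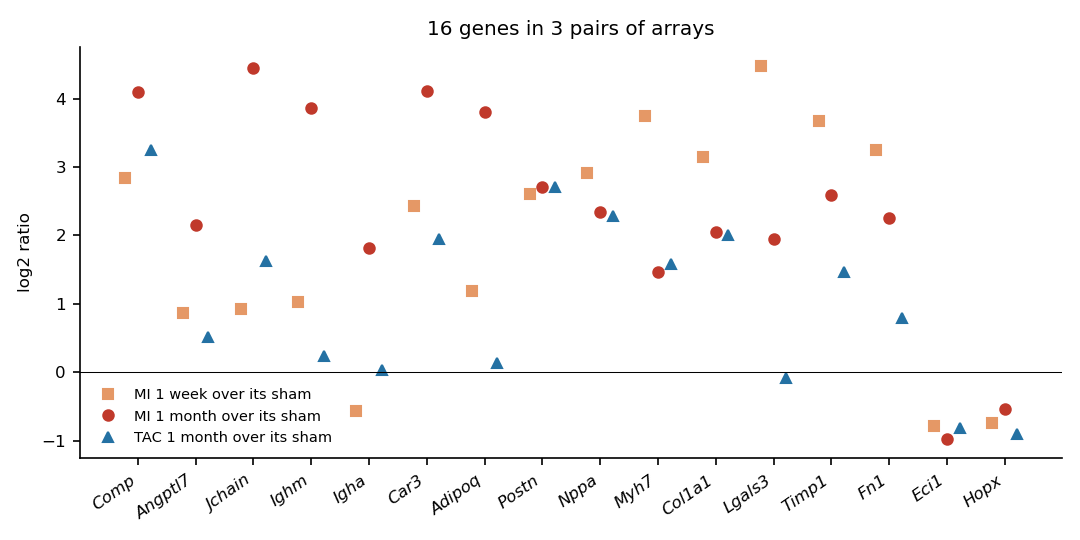
Log2 ratio to the own sham of 16 genes in MI 1 week, MI 1 month and TAC 1 month. Comp, Jchain, Ighm and Car3 have their highest ratio at MI 1 month, Lgals3, Timp1 and Col1a1 at MI 1 week, and Eci1 is below 0 in all 3 pairs.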

How the data were processed

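RNA from the left ventricle was measured on 12 1-colour Affymetrix arrays, 1 per group. The values are intensity, a linear signal per probe set, as deposited by the authors, and the submitters' processing notes name GCOS. Which signal algorithm was run, and whether the authors scaled the arrays, is not given in the sources used here. A 1 day harvest stands under MI in the series text but under TAC in the labels, which were used. Of 45101 probe sets, 34958 carry 1 gene symbol, 932 several and 9211 none in the annotation used, and the Entrez IDs of 34754 probe sets were found in RefSeq with 0 changed symbols.

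Columns were scaled to a common 2% trimmed mean, floored at the 20th percentile of all signals (4.54) and log2 transformed. The brightest probe set stood for a gene. Genes whose mean log2 signal over all arrays was under the 40th percentile of probe sets (18.1) were left out, which kept 11624 of 18194. A gene bright on few arrays could thus be left out as too dim. The mean over all arrays, which also chose the brightest probe set, includes MI 1 month and the other treated arrays. A gene dim in the controls could therefore enter through its high signal after treatment. Cthrc1 and Trem2, with control medians of 5.3 and 5.7, are examples. The filter favours higher calls among such genes, and its effect on the list medians was not tested. The floor held 0.183% of the values tested. Tests used limma 3.58.1 with an intensity trend in R 4.3.3, over 7 arrays (5 residual degrees of freedom) or 9 arrays for differences between MI 1 month and MI 1 week or TAC 1 month. The fit was tested on simulated data. There the lone array varied like the controls by construction, so that assumption about the MI array was not tested. Tables and figures used Python 3.11.15, pandas 2.3.3, numpy 2.4.6, scipy 1.17.1 and matplotlib 3.10.9. Arrays have no read depth, so their number limits the precision, and the p-values measure the spread between these arrays, which may be technical. Every deposited column was mapped, with 0 left unused.

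Named genes are the 15 highest and 12 lowest 2-fold ratios, and in each list the 2-fold members, the members past limma and the 3 largest ratios. Any fetal, collagen, matricellular or cardiomyocyte marker gene could also be named. List members past limma were thus named because of their result. Other genes are said to be chosen after their values were seen. The comparison, its 58 gene lists and the tests were chosen with earlier results of these data known. Alternatives were another scaling, floor, probe set rule, dim filter or sham, and each control left out in turn.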

Additional observations from a re-analysis of the deposited data

Results flagged for a closer look

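Ighm differed between MI and TAC at 1 month by limma (adjusted p = 0.00866), with 1062 on the MI 1 month array and 95.1 on the TAC 1 month array. For 4 of the named 2-fold genes the ratio to the own sham was past 2-fold the other way in another pair whose brighter signal was above 25.9, and these differences were not tested. Col12a1, a fibril-associated collagen, also ran the other way, at 1.23 in MI at 1 month and -1.41 in TAC at 1 month, with both signals of the TAC pair under that limit. Acsf2, an acyl-CoA synthetase family member, had a log2 ratio of -2.77 in MI at 1 month and 1.28 in TAC at 1 month. Spock2, a testican proteoglycan, had -2.60 in MI at 1 month, where its signal of 5.78 was also near the floor, and 1.61 in MI at 1 week. Gpnmb, a glycoprotein of lipid-associated macrophages, had 2.27 in MI at 1 month and -1.11 in TAC at 1 month. Cxcl9, an interferon-induced chemokine, had 1.25 in MI at 1 month and -1.79 in MI at 1 week. Of the 10 alternatives to the 2-fold rule, 4 ended the MI 1 month call of Cxcl9. The call was lost under 3 for Acsf2, 3 for Spock2 and 1 for Gpnmb.

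Probe sets with several gene symbols were outside the gene-level comparison. Among 13 of them that list immunoglobulin genes, 4 were 2-fold higher after MI at 1 month, with log2 ratios to the own sham of 4.70, 4.43, 4.30 and 2.88. The last of these was at 33.5 on the MI 1 month array and was floored on its sham.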

How the results depend on the processing

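The 2-fold rule called 408 genes (336 higher, 72 lower). The lower count moved to 146 with the TAC series sham at 1 month as the comparison array and to 114 without the range demand, and signals above the 75th percentile left 171 (156 higher, 15 lower). Under all 10 alternatives 91 higher and 4 lower genes kept their call. limma called 100 genes (67 higher, 33 lower). The mean of all probe sets gave 63 with 16 lower, no filter on dim genes 153 (135 higher, 18 lower), no intensity trend 23 (19 higher, 4 lower), and signals as deposited 18 lower. The own sham alone, an alternative added after seeing the data, gave 17 (16 higher, 1 lower). Leaving out each control in turn gave 78 to 122 in all, 53 to 78 higher and 23 to 44 lower. Comp, Sfrp2, Col8a1, Bgn, Fmod, Itgbl1, Mgp and Dkk3 kept their limma call under all 14 alternatives. Of the 32 list medians beyond the controls, 3 changed sign under an alternative: with quantile normalization the sarcomere genes came to 0.01 and the cardiomyocyte markers to 0.005, and with the TAC series sham the smooth muscle and pericyte markers came to -0.133. Of the 24 medians within the controls, 12 changed sign under an alternative, such as T and NK cell markers (0.56, -0.67 with the TAC series sham). The number of lists beyond the controls was 32, and 29 to 36 under the alternatives. The cause of these shifts was not tested. No paired analysis was possible because each group holds 1 array. Signals near the floor limit the ratios of dim genes.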

Other observations

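Some genes outside every list also passed limma against the 6 controls, and the ones named here were chosen after their values were seen. Of the 67 higher and 33 lower calls, 24 and 21 were in no list. Serpinf1, a secreted protein that inhibits vessel growth, had 1187 on the MI 1 month array and 434 on its sham and rose by 1.43 ± 0.14 (limma, adjusted p = 0.000719). Cyp2e1, a cytochrome P450, had 237 on the MI array and rose by 3.12 ± 0.43 (adjusted p = 0.00529). S100a4, a calcium-binding protein of motile cells, rose by 1.67 ± 0.30 (adjusted p = 0.0228), Abi3bp, a matrix protein, by 1.74 ± 0.26 (adjusted p = 0.0082) and Vim, vimentin, by 0.84 ± 0.14 (adjusted p = 0.015, 0.0848 with the mean of all probe sets). Aqp6, an aquaporin, had 173 on the MI array and 750 on its sham and fell by 1.89 ± 0.21 (adjusted p = 0.0013, 0.133 with the mean of all probe sets). Ano10, an anoctamin, had 261 on the MI array and 616 on its sham and fell (adjusted p = 0.004). Ces1d, a carboxylesterase, fell by 1.33 ± 0.19 (adjusted p = 0.00676, 0.102 with the mean of all probe sets), and Nnt, the mitochondrial transhydrogenase, by 0.68 ± 0.12 (adjusted p = 0.0228, 0.313 with the mean of all probe sets).

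Among probe sets not tied to 1 gene, 23 with several symbols were 2-fold higher and 7 lower of 932, and 97 not in the annotation were 2-fold higher and 59 lower of 9160.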
